A study of Mus musculus with 9 samples.

Results

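Notch1, Notch2, Notch3 and Notch4 encode the receptors of the Notch pathway, Jag1, Jag2, Dll1 and Dll4 encode its ligands, and Hes1 and Hey1 are 2 of its target genes. These 10 genes were chosen by name, and 9 of them had a row among the 16755 genes of the deposited table. Jag2 was not analysed here. RNA-seq was done on whole liver tissue of male mice, C57BL/6 by the labels and C57BL/6J by the methods of the study, in 3 groups of 3. Every mouse of the 3 groups carried floxed Scd2, the gene of a stearoyl-CoA desaturase. The untreated Scd2f/f mice received no carcinogen and no Western alcohol diet, and the labels do not give their age. The treated Scd2f/f mice were injected with diethylnitrosamine (DEN), a hepatic carcinogen, at 10 mg/kg when 2 weeks old and were fed Western alcohol diet (WAD) from 6 weeks of age for 4 months by the sample labels, while the methods of the study give a longer time. The Scd2f/f;Col1a1-Cre (Scd2f/f;CC) mice had the same DEN and WAD and also carried Cre recombinase under the Col1a1 promoter, which is active in activated hepatic stellate cells (HSC) and portal fibroblasts. The study describes the treated tissue as tumor-adjacent liver (TAL), which by its account contained microscopic tumors, although its RNA methods use another abbreviation. The 2 treated groups are called control TAL (no Cre) and CC TAL below.

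Notch receptors are activated by ligands on a neighbouring cell, cut by ADAM proteases and then by gamma-secretase, and release an intracellular domain that enters the nucleus. There it binds RBPJ and Mastermind proteins and switches on target genes, of which Hes1 and Hey1 encode basic helix-loop-helix repressors. In liver, Jag1 and Notch2 are known for bile duct development, and Notch1, Notch4 and Dll4 for their expression in endothelial cells. In a whole-tissue sample, fewer cells of a type and less RNA per cell cannot be told apart.

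The authors' deposited table gives 1 least-squares mean of normalized counts for each group and gene, with 3 significant digits. No value of a single mouse was used, which leaves the spread within a group unknown. No test across mice was run, and each ratio below describes 2 group means with no error. The depth of each sample is unknown. Rounding of the means moved a log2 ratio of a member by at most 0.012. Scd2, the targeted gene, had a mean of 2.46 in untreated liver, 6.47 in control TAL and 1.87 in CC TAL. Of the markers of hepatocytes, Alb, which encodes albumin, had means of 21300, 20900 and 22700 in the same order. Other hepatocyte markers differed more. Of the 12 listed, 9 were lower in control TAL than in untreated liver and 3 were higher. The 75th percentile of the means was 15.5, 15.5 and 15.4, which the authors' upper-quartile normalization makes near equal.

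The 9 genes lie on 4 chromosomes in GENCODE M21 on GRCm38, whose starts were those of the deposited table for all 9. Notch1 (26457903 to 26516663), Dll4 (119325784 to 119335962) and Jag1 (137081456 to 137116644) are on chromosome 2. Notch2 (98013527 to 98150361) and Hey1 (8663359 to 8667256) are on chromosome 3. Hes1 (30064384 to 30067796) is on chromosome 16. Dll1 (15367354 to 15376872), Notch3 (32120820 to 32166852) and Notch4 (34564268 to 34588503) are on chromosome 17. Another gene of GENCODE M21 overlaps 6 of the 9, and Jag1, Hes1 and Hey1 have none. The library kit does not mark strand, so reads from bases that these 6 share with an overlapping gene cannot be assigned by strand, and the extent of shared exons was not measured.

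Promoters are printed for the receptor and the ligand that stood furthest above untreated liver in control TAL, Notch1 and Jag1, and for Notch2, the receptor whose means were nearest to each other in CC and control TAL. The sequences are those of RefSeq on GRCm38.p6, taken from the 250 bases before the start and ending before the first exon base of the gene in GENCODE M21, and are written 5′ to 3′ on the strand of the gene. Notch1 is chr2:26503825-26504072 on the minus strand, within the span of the longer GENCODE gene model. Jag1 is chr2:137116645-137116770 on the minus strand. Notch2 is chr3:98013288-98013526 on the plus strand. Capitals mark the GC box, GGGCGG on either strand.
Notch1: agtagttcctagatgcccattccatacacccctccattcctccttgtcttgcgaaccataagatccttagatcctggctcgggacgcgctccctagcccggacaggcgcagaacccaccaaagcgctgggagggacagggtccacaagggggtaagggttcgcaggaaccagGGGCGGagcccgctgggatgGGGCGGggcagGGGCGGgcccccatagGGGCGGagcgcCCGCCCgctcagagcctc
Jag1: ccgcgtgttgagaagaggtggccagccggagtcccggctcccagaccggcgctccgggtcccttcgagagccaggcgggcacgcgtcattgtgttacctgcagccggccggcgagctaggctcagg
Notch2: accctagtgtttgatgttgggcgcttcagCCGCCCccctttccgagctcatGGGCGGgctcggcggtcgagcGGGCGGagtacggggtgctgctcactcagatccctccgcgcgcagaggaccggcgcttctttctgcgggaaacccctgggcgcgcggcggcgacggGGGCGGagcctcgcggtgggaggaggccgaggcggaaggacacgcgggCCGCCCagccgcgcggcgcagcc

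The RefSeq table held promoters of 8 of the 10 named genes, with 2 for Dll1, which makes 9 windows of 300 bases. The table had no entry for Hes1 and Hey1. The GC box was present in 5 of the 9 windows, against 35.7% of all 32851 promoters of the table. The stretches of Notch1 and Notch2 above hold 5 boxes each and that of Jag1 holds 0. Windows of the members held between 5 CpG (Notch4) and 63 CpG (Jag2), where the median promoter held 7. Every window but that of Notch4 was above this median. The RBPJ word TGGGAA was searched on both strands and was found in 0 of the 9 windows, while 25.6% of all promoters hold it. The longer GTGGGAA, which contains TGGGAA, was in 0 of the 9 windows and in 6.38% of all promoters. These matches describe the letters of the windows.

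Control TAL was compared with untreated Scd2f/f liver to ask how DEN and WAD go with expression of the pathway. Hes1 stood out among the members, at 2.69 in untreated liver and 9.28 in control TAL, 3.45-fold higher. Notch1, Jag1 and Hey1 were between 1.5-fold and 2-fold higher, and the means of Notch2, Notch3 and Dll1 lay within 6% of untreated liver. Of the 9 members, 8 had a ratio above 1 and 1 had a ratio below it. The median log2 ratio of the members was 0.36, and that of all genes was 0.045.

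The receptors differed in this comparison. Notch1, a broadly used receptor with a known role in endothelium, had a mean of 14.9 in untreated liver and 26.5 in control TAL (1.78-fold). Notch2, the receptor needed for bile duct formation, had means of 45.6 and 48.1 (1.05-fold). Notch3, known from pericytes and smooth muscle, had means of 1.21 and 1.25 (1.03-fold). Notch4, an endothelial receptor, was between these with 1.36 and 1.75 (1.29-fold). Only Notch1 of the 4 receptors was at least 1.5-fold higher.

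Among the ligands, Jag1, the gene affected in most families with Alagille syndrome, had a mean of 3.88 in untreated liver and 6.56 in control TAL (1.69-fold). Dll4, a ligand of vascular endothelium, had means of 1.51 and 1.94 (1.28-fold). Dll1 was the member with a ratio below 1, with means of 1.51 and 1.45 (0.96-fold). Jag1 thus had the highest ratio of the 3 ligands.

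Both target genes were higher in control TAL. The log2 ratio of Hes1 was 1.79, and 3.23% of all genes had a higher one. Hey1 had a mean of 0.269 in untreated liver and 0.499 in control TAL, 1.86-fold higher, and 10.9% of all genes had a higher ratio. Hey1 had the lowest level of the members, also per kb of exons, and 14.2% of all genes had a lower mean over the 3 groups. The log2 ratio of Hey1 was 0.89, and it was 0.24 where a pseudocount of 1 was used.

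With a limit of 2-fold, 1 of the 9 members was higher, Hes1, against 9.37% of all genes, and 0 were lower, against 4.69%. Of the 11784 genes that averaged at least 1 over the 3 groups, 6.4% were 2-fold higher. With a limit of 1.5-fold, 4 members were higher, against 17.2% of all genes.

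**Figure D1:**
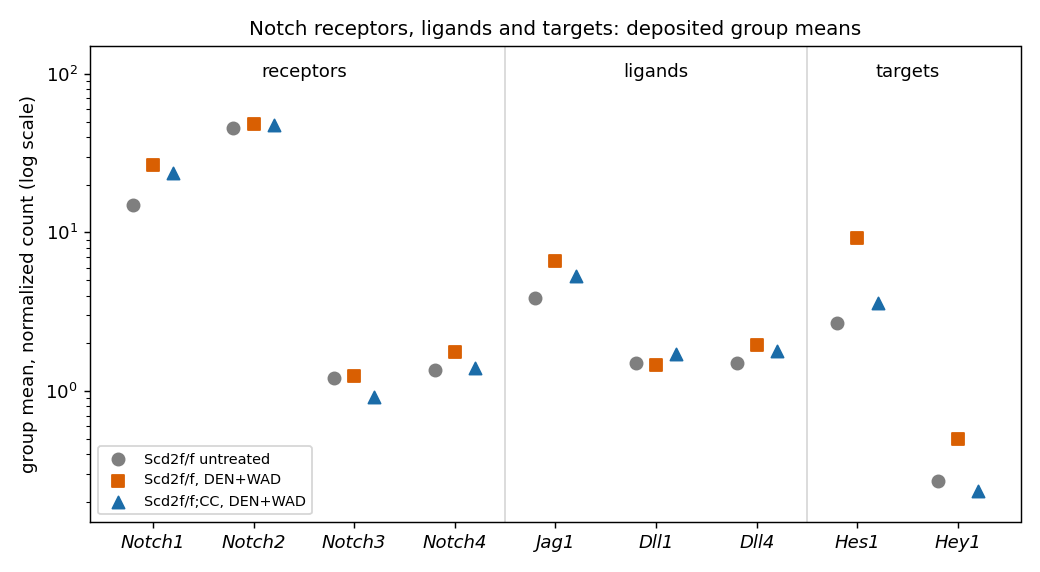
Group means of the 9 members in normalized counts, as deposited, on a log axis, with a grey circle for untreated liver, an orange square for control TAL (Scd2f/f DEN+WAD), a blue triangle for CC TAL (Scd2f/f;CC DEN+WAD) and no error since no values of single mice were used. Hes1 and Hey1 stand highest in control TAL, at 9.28 and 0.499, while the 3 points of Notch2 lie between 45.6 and 48.1.

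CC TAL was compared with control TAL to ask how loss of Scd2 in Col1a1-expressing cells goes with expression of the pathway. This comparison shares the control TAL mean with the one above, so the directions of both are not independent. Both target genes had less than 0.5 of their control TAL mean. The 7 receptors and ligands had between 0.733 and 1.19 of it, and 0 of them reached 1.5-fold, where 5.72% of all genes were higher and 9.8% lower by that much. In all, 8 of the 9 members were lower, with Dll1 as the exception, and the median log2 ratio was -0.31, while that of all genes was 0.

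The mean of Hes1 was 9.28 in control TAL and 3.60 in CC TAL, 2.58-fold lower. Its log2 ratio was -1.37, and 344 of the 16755 genes (2.05%) had a lower one. Hey1 had means of 0.499 and 0.234, 2.13-fold lower, and 564 genes (3.37%) had a lower ratio. Its means are low, and its log2 ratio of -1.09 became -0.84, short of 2-fold, once a pseudocount of 0.1 was used. That of Hes1 was -1.16 with a pseudocount of 1.

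Jag1 had a mean of 6.56 in control TAL and 5.30 in CC TAL, a ratio of 0.808. Dll4 had means of 1.94 and 1.80, a ratio of 0.928. Dll1, at 1.45 and 1.72, was 1.19-fold higher. The ligands thus differed in direction, all by less than 1.5-fold. The study listed Hes1 and Jag1 for the Notch pathway from these same mice, so their ratios are not independent evidence of a direction.

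Notch3 had the lowest ratio of the receptors, 0.733, with a mean of 1.25 in control TAL and 0.916 in CC TAL. Notch4 had means of 1.75 and 1.40, a ratio of 0.80. Notch1 had means of 26.5 and 23.6, a ratio of 0.891. Notch2, with the highest level of the receptors per kb of exons, had nearly equal means of 48.1 and 47.5, a ratio of 0.988. A ratio below that of Notch1 was seen for 28.0% of all genes, and one below that of Notch3 for 13.4%.

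With the 2-fold limit, 2 of the 9 members were lower, Hes1 and Hey1, against 4.07% of all genes, and 0 were higher, against 1.82%. Of the 8 members with a mean of at least 1 over the 3 groups, Hes1 alone was 2-fold lower, against 1.54% of such genes.

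**Figure D2:**
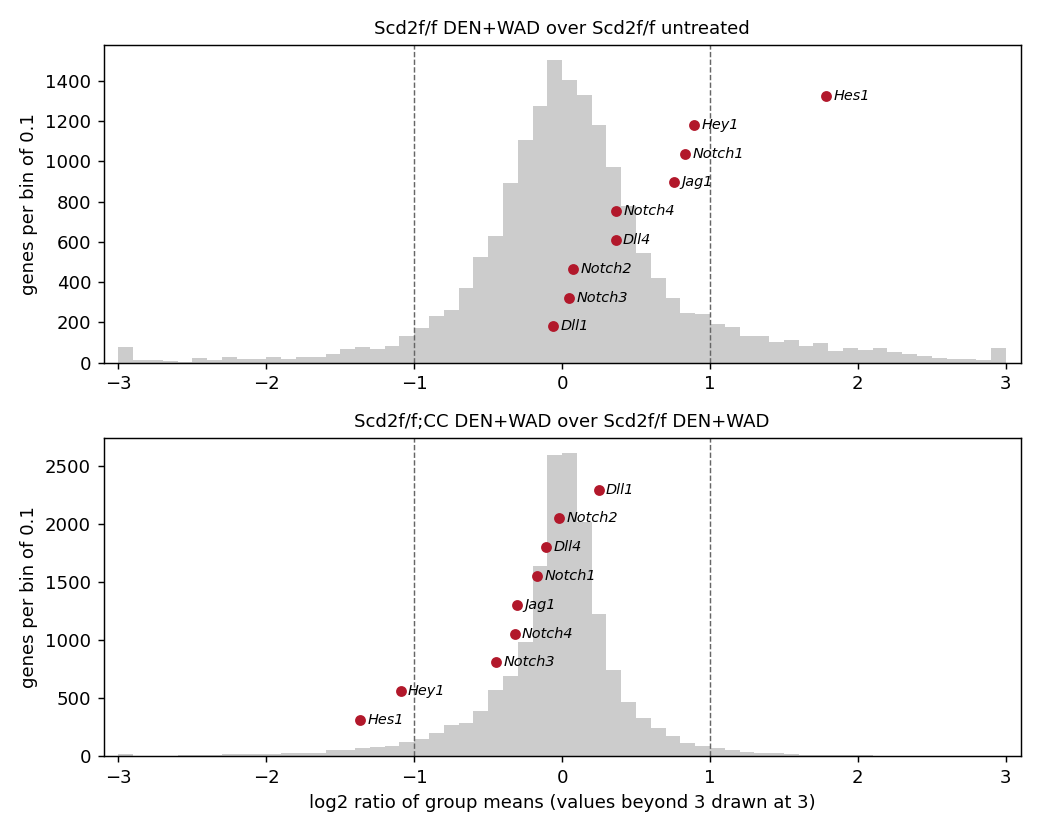
Histograms of the log2 ratio of group means over all 16755 genes, in bins of 0.1, for control TAL over untreated liver (upper panel) and CC TAL over control TAL (lower panel), with the 9 members as red points whose height has no meaning and dashed lines at 2-fold. Hes1 lies at 1.79 in the upper panel and, with Hey1, beyond the lower 2-fold line in the lower one, at -1.37 and -1.09.

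CC TAL was also set beside untreated liver, a comparison that shares a mean with each of the others. Hes1 had 3.60 against 2.69, a ratio of 1.34, and 21.5% of all genes had a higher one. Hey1 had 0.234 against 0.269, a ratio of 0.870. The means of both targets in CC TAL were thus nearer to untreated liver than to control TAL. Notch1 was higher than in untreated liver here too, at 23.6 against 14.9 (1.58-fold). Jag1 had 5.30 against 3.88 (1.37-fold). Notch3 had the lowest ratio of the members, 0.757. Dll4 (1.19-fold), Dll1 (1.14-fold), Notch2 (1.04-fold) and Notch4 (1.03-fold) were all less than 1.2-fold higher. No member passed 2-fold, where 6.41% of all genes were higher and 4.64% lower. Notch1 alone passed 1.5-fold, against 14.9% of all genes that were higher by that much.

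Levels of different genes were compared per kb of merged exons of GENCODE M21, a length that can differ from the one the authors counted over. Notch2 had the highest level in untreated liver, 4.23 normalized counts per kb, followed by Hes1 (1.32), Notch1 (1.05) and Jag1 (0.666). In control TAL, Hes1 had 4.56 and Notch2 4.46 normalized counts per kb. In CC TAL, Notch2 was first again with 4.41, ahead of Hes1 (1.77) and Notch1 (1.66). Hes1 was thus next to Notch2 in all 3 groups, and above it only in control TAL, by a margin whose error is unknown. Dll4, Dll1, Notch4, Notch3 and Hey1 followed with means over the 3 groups from 0.454 down to 0.102 normalized counts per kb, with Jag1 above them at 0.900.

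Of 59 other genes of the pathway in 8 lists, 51 had a row and 43 of these had a mean of at least 1 over the 3 groups. In CC TAL, 0 of the 51 differed from control TAL by 2-fold, where 1.82% of all genes were higher and 4.07% lower, and their median log2 ratio was -0.025. In control TAL, 2 of the 51 were at least 2-fold above untreated liver, against 9.37% of all genes, and 0 were as far below it, against 4.69%, and their median log2 ratio was 0.13. Lfng, the fucose-modifying enzyme Lunatic fringe that tunes receptors to Delta ligands, had means of 1.38 in untreated liver, 3.23 in control TAL and 2.45 in CC TAL. It was 2.34-fold higher in control TAL than in untreated liver. The other gene was Neurl1b, a ubiquitin ligase of Delta-type ligands, with means of 0.497, 1.0 and 0.721 in the same order, named after its values were seen because its mean over the 3 groups is under 1.

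Of 8 other target or HES family genes, 5 had a row. Sox9, a cholangiocyte transcription factor, had means of 3.0 in untreated liver, 5.03 in control TAL and 3.52 in CC TAL. Heyl, a relative of Hey1, had 0.777, 1.12 and 0.729. Both were highest in control TAL, Sox9 1.68-fold and Heyl 1.44-fold above untreated liver, and Heyl was 1.54-fold lower in CC TAL than in control TAL. The feedback inhibitor Nrarp was highest in CC TAL, with 0.406, 0.434 and 0.589. Dtx1, a ubiquitin ligase of the pathway, had 0.237, 0.279 and 0.272, with control TAL 1.18-fold above untreated liver. Hes6, a HES family member that counteracts Hes1 protein, had 25.6, 12.9 and 14.9, and was lowest in control TAL. It had the highest mean of its list. Values for Sox9, Heyl, Nrarp and Dtx1 were chosen after they were seen, to give every target with a row.

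At other steps of the pathway, 0 genes differed by 1.5-fold between CC and control TAL, against the 5.72% of all genes that were higher and the 9.8% that were lower. Rbpj, the DNA-binding partner of the Notch intracellular domain, had means of 10.8, 11.4 and 11.4 in untreated liver, control TAL and CC TAL. The 7 genes of the nuclear complex had a median log2 ratio of 0 between CC and control TAL, and their log2 ratios between control TAL and untreated liver ran from -0.55 to 0.89. Kat2b, an acetyltransferase, had the highest mean of them with 50.4, 54.8 and 60.2. The 10 genes for cleavage of the receptor had log2 ratios from -0.37 to 0.22 between CC and control TAL. Furin, the convertase that makes the first cut, had the highest mean of that list, with 112, 106 and 108. Among the sugar transferases Pofut1, which adds fucose to the receptor, had the highest mean, with 6.44, 7.12 and 7.73. The highest means of the lists for ligand endocytosis, receptor turnover and corepressors were those of Mib1 (73.7, 76.4 and 79.5), Nedd4 (149, 168 and 170) and Ncor1 (63.4, 79.7 and 87.6). Dll3, Dlk1, Dlk2 and Dner, listed as other ligands, were not analysed here.

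Levels of markers of other cells in the tissue also differed between the groups. Hes1 was lowest in untreated liver and Hey1 in CC TAL, and both were highest in control TAL. Of the 14 markers of HSC and portal fibroblasts, 13 were higher in control TAL than in untreated liver. All 14 were lower in CC TAL than in control TAL, 6 of them by at least 2-fold, against 4.07% of all genes. The summed level of the 14 was 230, 384 and 225 in untreated liver, control TAL and CC TAL. The sums of untreated liver and CC TAL were close. In CC TAL, 6 of the 14 markers were higher than in untreated liver and 8 were lower. Col1a1, which encodes the collagen whose promoter drives the Cre, had means of 4.69, 19.6 and 4.51. The part of these cells in the values of the Notch genes was not tested.

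Of 12 cholangiocyte markers, 9 had a row, and 8 of these were lower in CC TAL than in control TAL. By at least 2-fold, 7 of the 9 were lower, against 4.07% of all genes. A mean of at least 1 over the 3 groups was reached by 3 of the 9. The summed level of the 9 was 63.4, 58.1 and 23.5 in untreated liver, control TAL and CC TAL. Most of it was Spp1, with 52.3, 45.1 and 14.8. Krt19, a keratin of bile ducts, had 0.746, 0.751 and 0.204. The sum, carried by Spp1, was lower in control TAL than in untreated liver, but 6 of the 9 markers were higher there. Cftr (0.336, 0.799 and 0.131), Cldn7 (0.194, 0.451 and 0.199) and Tspan8 (0.679, 1.49 and 0.306) were at least 2-fold higher in control TAL than in untreated liver, against 9.37% of all genes. They were also at least 2-fold lower in CC TAL than in control TAL, and each had a mean over the 3 groups under 1. Spp1, Krt7 (0.652, 0.436 and 0.0892) and Epcam (1.97, 1.82 and 0.5) were lower in control TAL than in untreated liver. The part of cholangiocytes in the values of the Notch genes was not tested.

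The 14 endothelial markers summed to 231, 278 and 283. Between CC and control TAL, 0 of them differed by 2-fold, where 1.82% of all genes were higher and 4.07% lower. In control TAL, 12 of the 14 were above untreated liver and 2 were below it. At least 2-fold higher there were 2 of the 14, Cdh5 (13.6, 27.7 and 24.9) and Lyve1 (2.6, 6.6 and 3.44), against 9.37% of all genes. The 12 macrophage markers summed to 124, 491 and 393. All 12 were at least 2-fold above untreated liver in control TAL and in CC TAL, against 9.37% and 6.41% of all genes. The 12 hepatocyte markers summed to 50647, 48905 and 53758. Tat (499, 181 and 305) alone of them was at least 2-fold lower in control TAL than in untreated liver, against 4.69% of all genes. Cyp3a11 (3990, 2580 and 1830) alone was as far below untreated liver in CC TAL, against 4.64%. In CC TAL, 10 of the 12 were higher than in control TAL and 2 were lower. Smooth muscle and pericyte markers, 6 in all, summed to 76.2, 85.2 and 77.0, and most of each sum was Mylk (38.7, 44.6 and 44.7) and Rgs5 (25.3, 34.5 and 28.6). The other 4 were lower in control TAL than in untreated liver, 3 of them by at least 2-fold (Tagln, Myh11 and Cnn1), against 4.69% of all genes. The median log2 ratio of the list in that comparison was -0.57. In CC TAL, 2 of the 6 were at least 2-fold lower than in control TAL, against 4.07% of all genes. These were Tagln (3.79 and 1.75 in control and CC TAL) and Acta2 (1.20 and 0.388). Acta2, whose protein the study used to mark activated HSC, had 1.27 in untreated liver. The 7 lymphocyte markers with a row summed to 1.15, 3.93 and 2.76, and 0 of them had a mean of at least 1 over the 3 groups. In control TAL and in CC TAL, 6 of the 7 were at least 2-fold above untreated liver, against 9.37% and 6.41% of all genes. The sums of the macrophage and lymphocyte markers had the order of groups of Hes1. However, 2 of the 12 macrophage markers and 3 of the 7 lymphocyte markers were higher in CC TAL than in control TAL. Smooth muscle and pericyte sums were nearly equal in untreated liver and CC TAL, and 4 of these 6 markers were lower in CC TAL than in untreated liver. No marker with a row was at 0, and the part of these cells in the values of the Notch genes was not tested.

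**Figure D3:**
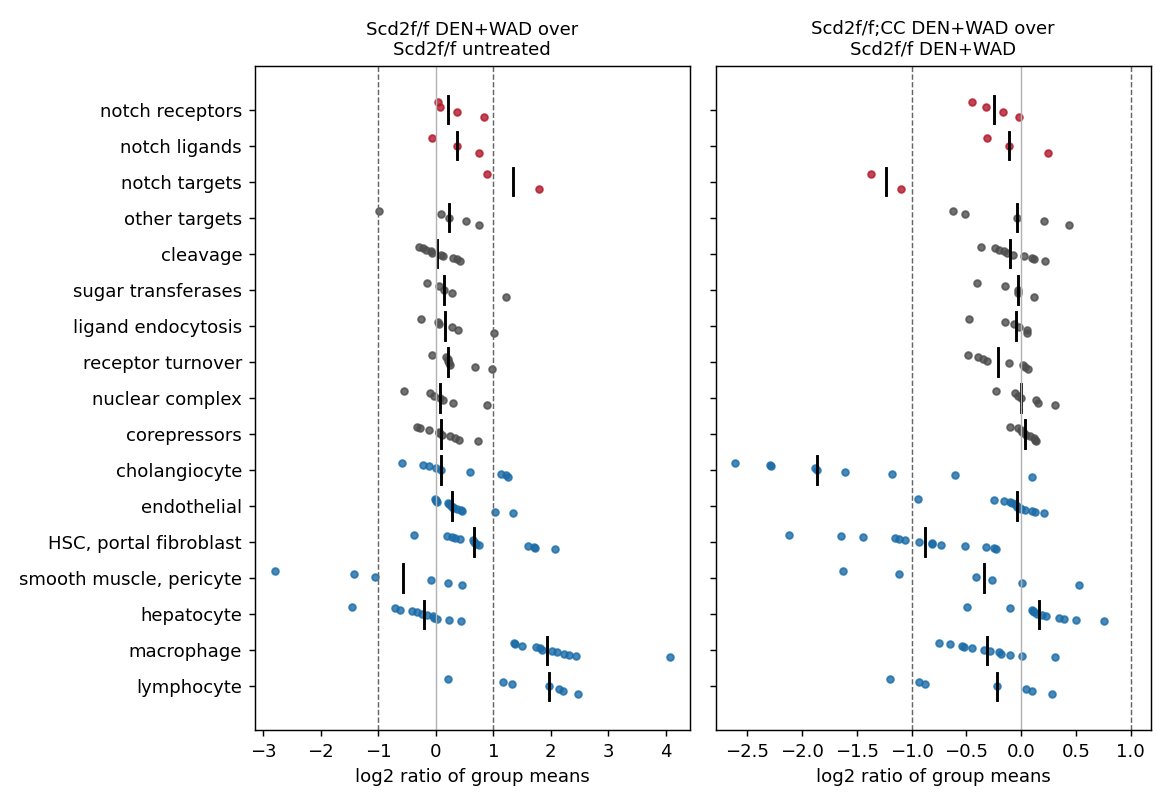
Log2 ratios of group means for the members (red), 7 other lists of Notch pathway genes with a row (grey) and 7 lists of cell type markers (blue), with 1 point per gene, a black bar at the median of each list and dashed lines at 2-fold. In the right panel, CC TAL over control TAL, the targets stand at -1.37 and -1.09, no grey point lies beyond 2-fold, and the markers of cholangiocytes and of HSC and portal fibroblasts have medians of -1.86 and -0.87.

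Genes with a pattern most like that of a member were sought for the receptor, ligand and target with the highest mean among the 11783 other genes with a mean of at least 1 over the 3 groups, by the Euclidean distance between pairs of log2 ratios. With 3 group means, this is a likeness over 3 points only. Nearest to Hes1 were Klf6, a zinc finger transcription factor, with means of 6.75, 23.8 and 9.75 in untreated liver, control TAL and CC TAL (distance 0.085), Gm3776 (distance 0.12) and Tnc, which encodes the matrix protein tenascin C (distance 0.13). Few genes lay near Hes1, 7 within a distance of 0.25. Nearest to Jag1 were Itpripl2, 2410089E03Rik and Mamdc2, at distances from 0.023 to 0.028, and 431 genes lay within 0.25. Nearest to Notch2 were Med14, Tjp1 and Otub1, at distances from 0.0021 to 0.0047, and 3893 genes lay within 0.25.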

How the data were processed

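The authors prepared polyadenylated RNA libraries (Illumina TruSeq) from liver of 3 mice per group. The submitters' processing notes name STAR 2.6.1, Partek 6 and the build mm10. The authors assigned reads to Gencode M3 genes with the Partek E/M method, applied upper-quartile normalization and fitted Partek Gene Specific Analysis. From the deposited table, only the signal of each group was used, a least-squares mean of normalized counts. The p-values, FDR, ratios and fold changes of the authors' own comparisons were left out. Log2 ratios were computed here from the means with no pseudocount, and a gene was counted at 2-fold or more. Without values of single samples, no test and no fit that leaves out a mouse could be made. The members and lists were chosen with earlier results of these data known. Genes named were the members, Scd2, the gene with the highest mean (not per length) of each list, list genes past 2-fold with a mean of at least 1, and nearest genes. Genes shown for cell types were chosen after their values were seen. Alternatives were a 1.5-fold limit, pseudocounts of 0.1 and 1, a minimum mean of 1 and subtraction of the median log2 ratio over genes averaging at least 1. Steps were tested on simulated data. Software was Python 3.11.15, NumPy 2.4.6, pandas 2.3.3 and Matplotlib 3.10.9.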

Additional observations from a re-analysis of the deposited data

How the results depend on the processing

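Between CC TAL and control TAL, the count of members past 2-fold went from 2 to 1 with a pseudocount of 0.1, with a pseudocount of 1, and among members with a mean of at least 1, in each case without Hey1. Centring and a 1.5-fold limit left it at 2. Between control TAL and untreated liver, the 1.5-fold limit took the count from 1 to 4, and between CC TAL and untreated liver from 0 to 1. The other settings left both counts as they were. Of 81 log2 ratios of members recomputed with pseudocounts or centring, 79 kept their side of the 2-fold limit. The 2 others were those of Hey1 between CC and control TAL, at -0.84 and -0.28. One ratio changed sign, that of Notch4 between CC TAL and untreated liver, from 0.042 to -0.0015 with centring. No paired analysis was possible because the deposited columns hold group means and carry no replicate numbers. For the same reason, leaving out each mouse in turn was not run. Depth per sample is unknown, so the precision of the lowest member, Hey1, could not be set.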
